A study of Mus musculus with 4 samples.

Results

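The urea cycle genes Cps1, Otc, Ass1, Asl, Arg1, Nags and Slc25a15 are described here, 7 of 21951 protein-coding genes, taken by name. They were examined in 4 PRO-seq libraries of E14.5 mouse embryos. Liver and yolk sac have 2 libraries each, and every library pools the tissue of 6 embryos. PRO-seq maps engaged RNA polymerases by extending their nascent RNA in a run-on, here on isolated chromatin. The embryos came from C57BL/6J females mated with males of mixed C57BL/6J and CAST/EiJ background, chosen to carry only CAST/EiJ alleles at the Dlk1/Gtl2 locus, and both tissues share this cross. The strain label of all 4 libraries reads mixed C57BL/6h and CAST/EiJ. Both tissues are whole organs with several cell types, so that fewer cells of a type and less RNA per cell cannot be told apart.

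The urea cycle turns toxic ammonia into urea, and in the adult it runs at full length in hepatocytes around the portal vein. Its first steps take place in mitochondria, where Nags makes the activator of Cps1, Cps1 joins ammonia and bicarbonate into carbamoyl phosphate, Otc transfers that group to ornithine, and Slc25a15 exchanges ornithine for citrulline across the inner membrane. The later steps are cytosolic: Ass1 and Asl build and split argininosuccinate, and Arg1 releases urea from arginine. Ass1 and Asl also serve arginine synthesis in many other cells, and Arg1 is expressed in some macrophages. The fetal liver is mainly a blood-forming organ in mid-gestation, with immature hepatocytes among the blood cells, and the endoderm of the yolk sac expresses many genes that hepatocytes express.

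Each library gave a list of dREG peaks, intervals that a classifier marks as sites of transcription initiation. A promoter peak is one that overlaps the window of 500 bp either side of any annotated start of the gene. A distal peak is one that overlaps no such window of any gene. The score percentile is the rank of a peak by score, from the lowest, as a percentage of the number of peaks in its list, with ties averaged, and it ranks peaks only within that list. The liver lists held 24863 and 24333 peaks and the yolk sac lists 50525 and 43055, and how many reads each list rests on is not given in the files. The absence of a peak therefore means that none was called at an unknown depth. Every test between tissues is an exact two-sided permutation test over the 6 ways to split 4 libraries, which cannot give a p below 0.33, and no comparison could reach a conventional threshold. Nothing in the labels says that the 2 libraries of a tissue came from separate litters, so the spread between them may be technical in part.

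Promoter peaks marked 9 and 9 of 9 erythroid genes in liver, and 3 and 3 in yolk sac. Of 12 hepatocyte markers, 7 and 7 had one in liver and 8 and 8 in yolk sac, and Serpina1a, Cyp2e1, Tat and G6pc had none in any list. Of 10 markers of yolk sac endoderm liver called 8 and 5, and yolk sac all 10 in each library. The macrophage markers stood at 6 and 6 against 10 and 9 of 10, the endothelial ones at 5 and 7 against 8 and 8 of 8, and the mesenchymal ones at 5 and 9 against 10 and 10 of 10. Of all protein-coding genes, 56.1% and 57.9% had a promoter peak in liver and 63.8% and 62.4% in yolk sac. Calls at hepatocyte genes were thus present in both tissues at about these shares, and Fgb was called in yolk sac only. Among these lists only the erythroid one had fewer calls in yolk sac.

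All 7 genes had a promoter peak in both liver libraries, while yolk sac replicate 1 called 5 of them and replicate 2 called 6. Over all protein-coding genes the shares with a promoter peak ran the other way, 56.1% and 57.9% for liver and 63.8% and 62.4% for yolk sac. Liver averaged 7 ± 0 genes and yolk sac 5.5 ± 0.707 (SD, n = 2). Yolk sac minus liver was -1.5 genes (exact permutation p = 0.33, the smallest possible, and 0.667 after Benjamini-Hochberg adjustment over 4 comparisons). Cps1 was liver-only, meaning called in liver replicates 1 and 2 and never in yolk sac, a pattern of 1.01% of protein-coding genes. No member had the reverse pattern, which 5.25% of protein-coding genes showed. Otc, Ass1, Asl, Nags and Slc25a15 were called in all 4 libraries, as were 53.8% of protein-coding genes, and Arg1 lacked a peak in yolk sac replicate 1 only. The direction of the count depended on the score: with only the higher-scoring 50% of each list, members called numbered 4 and 3 in liver and 5 and 5 in yolk sac. Of all protein-coding genes, 43.1% and 43.2% were then called in liver, and 54.6% and 53.04% in yolk sac.

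**Figure D1:**
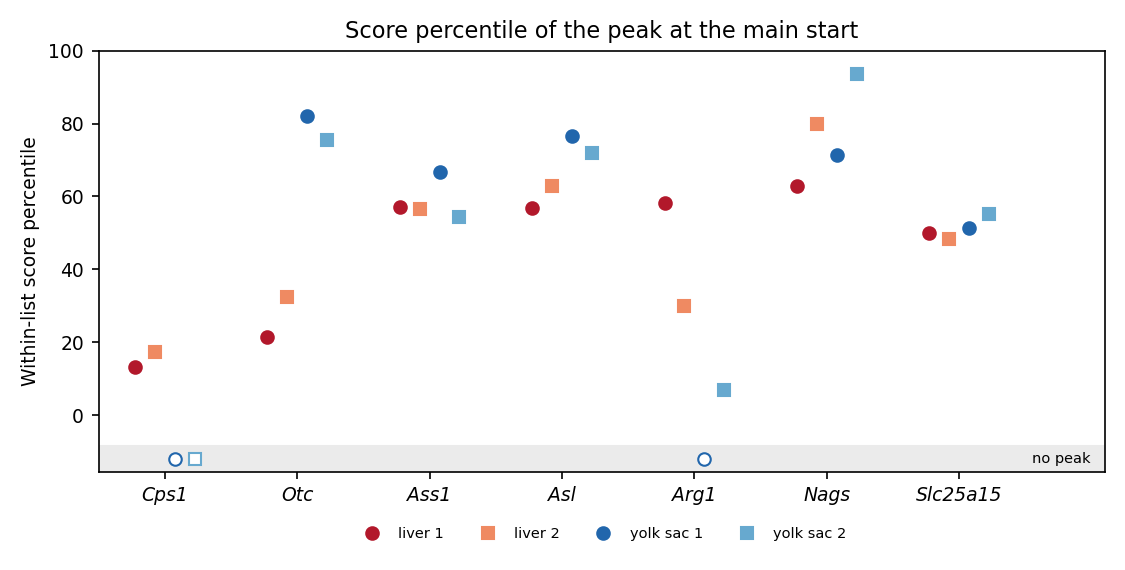
Within-list score percentile (y axis) of the peak over the main annotated start of each gene (x axis) in each of the 4 libraries, 1 point per library, with open symbols in the grey band where no peak was called. The Cps1 points lie at 13.1 and 17.4 in liver with none in yolk sac, and the Otc points lie higher in the yolk sac lists than in the liver lists.

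The mitochondrial genes, which hold the entry of the cycle, ranged from an even call at Nags to a liver-only one at Cps1. Nags, the N-acetylglutamate synthase, lies on chromosome 11 (102145513 to 102149477, plus strand, 3 transcripts). Its promoter peak was 1652 and 1702 bp wide in the liver libraries and 1852 bp wide in both yolk sac libraries. The yolk sac peaks began 748 bp upstream of the main start, and the liver peaks 298 and 398 bp upstream, whereas at the downstream end the liver peaks reached farther, to 1353 and 1303 bp against 1103 bp. The score percentiles were 62.9 and 80.0 in liver and 71.3 and 93.6 in yolk sac, and the tissues overlapped. The peak also lies within 500 bp of a start of Gm11586, so that initiation at the gene pair cannot be separated. A distal peak 2.90 kb upstream of Nags (102142201 to 102143102, intergenic) was called in all 4 libraries, at percentiles of 68.7, 39.4, 95.8 and 75.5 in the order liver replicates 1 and 2 and yolk sac replicates 1 and 2.

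Cps1, the carbamoyl-phosphate synthetase that commits ammonia to the cycle, spans 108.2 kb of chromosome 1 (67123026 to 67231259, plus strand) with 1 annotated transcript. Its promoter peak was 402 bp wide in liver replicate 1 (67123001 to 67123402) and 302 bp in replicate 2 (67122851 to 67123152), and it covered the annotated start in both. No peak was called within 500 bp of that start in either yolk sac library. The liver calls were weak, with score percentiles of 13.1 and 17.4, where the median promoter peak of a protein-coding gene had 65.0 and 64.1 in these lists. They remained when every list was cut to its top 24333 peaks, which in liver is nearly the whole list, and were lost in the higher-scoring 50%. At Cps1 the tissues thus differ by a pair of low-ranked liver peaks.

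Around Cps1, 3 peaks were called in each liver library and 1 in each yolk sac library, counting the gene and 50 kb on each side. A liver-only distal region lay 19.2 kb upstream (67103451 to 67104102, intergenic), 652 bp wide in both liver libraries and at percentiles of 70.8 and 76.9, well above those of the promoter itself. A yolk-sac-only region lay between it and the gene, 11.1 kb upstream (67111601 to 67112302, intergenic), at percentiles of 46.8 and 27.3. Within the gene, liver replicate 1 alone had a distal peak 2.55 kb downstream of the start, and the rest of its length held no peak in any list. Liver replicate 2 alone had a distal peak 45.2 kb upstream, 102 bp wide and at a percentile of 1.01. The equal liver counts thus include a peak in each library that the other lacked.

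Otc, the ornithine transcarbamylase, lies on the X chromosome (10252305 to 10321024, plus strand, 2 transcripts). Its promoter peak was called in all 4 libraries, but its extent differed between the tissues. It was 352 and 702 bp wide in the liver libraries and 2402 and 2352 bp wide in the yolk sac libraries. The yolk sac peaks ran from 1854 and 1804 bp upstream of the start to 547 bp downstream of it. The liver peaks reached only 4 and 304 bp upstream and 347 and 397 bp downstream. Score percentiles were 21.5 and 32.3 in liver and 82.0 and 75.6 in yolk sac, and the higher-scoring 50% of each list therefore holds the Otc peak for yolk sac replicates 1 and 2 but for no liver replicate. Counted by peak midpoint within the promoter window the call went the other way, with Otc called in liver replicates 1 and 2 and in no yolk sac library. The midpoint of the broad call lies upstream of the gene, which is why peaks with their midpoint in the Otc body numbered 1 and 1 in liver, against 0 and 0 in yolk sac.

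The sequence at the Otc start is shown because it sets this promoter apart from the other members with an entry in the RefSeq promoter table (GRCm38.p6). Each entry holds 250 bases before and 50 bases from a start on, and 4 of the 7 members had one: Otc (chrX:10252055-10252354, plus strand), Nags (chr11:102145263-102145562, plus strand), Ass1 (chr2:31470020-31470319, plus strand) and Slc25a15 (minus strand), which had a pair, chr8:22398572-22398871 and chr8:22398228-22398527. Capitals mark matches on either strand to the TATA box (TATAAA), the CCAAT box (CCAAT), the GC box (GGGCGG), a site of the C/EBP type (TTGCNNAA) or one of the HNF4 type (CAAAGTCC). Only the GC box was found in these windows, and overlapping matches run together.
Otc: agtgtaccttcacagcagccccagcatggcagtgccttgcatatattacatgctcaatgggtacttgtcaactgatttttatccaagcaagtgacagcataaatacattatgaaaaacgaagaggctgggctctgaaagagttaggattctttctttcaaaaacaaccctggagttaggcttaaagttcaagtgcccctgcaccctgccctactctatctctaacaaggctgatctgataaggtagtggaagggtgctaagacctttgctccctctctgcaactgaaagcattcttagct
Nags: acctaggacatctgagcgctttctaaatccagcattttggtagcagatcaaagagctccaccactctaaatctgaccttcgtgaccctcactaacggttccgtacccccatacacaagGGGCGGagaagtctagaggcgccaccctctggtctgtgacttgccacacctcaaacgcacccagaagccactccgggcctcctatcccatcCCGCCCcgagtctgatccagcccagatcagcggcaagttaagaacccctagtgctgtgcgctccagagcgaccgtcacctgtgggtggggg
Ass1: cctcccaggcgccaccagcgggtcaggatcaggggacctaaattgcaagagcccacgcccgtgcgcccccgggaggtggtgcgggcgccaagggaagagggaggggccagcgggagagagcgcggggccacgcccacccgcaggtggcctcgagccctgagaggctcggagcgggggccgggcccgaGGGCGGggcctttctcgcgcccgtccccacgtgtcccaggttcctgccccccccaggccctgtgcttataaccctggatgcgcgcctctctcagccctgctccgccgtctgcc
Slc25a15, upstream start: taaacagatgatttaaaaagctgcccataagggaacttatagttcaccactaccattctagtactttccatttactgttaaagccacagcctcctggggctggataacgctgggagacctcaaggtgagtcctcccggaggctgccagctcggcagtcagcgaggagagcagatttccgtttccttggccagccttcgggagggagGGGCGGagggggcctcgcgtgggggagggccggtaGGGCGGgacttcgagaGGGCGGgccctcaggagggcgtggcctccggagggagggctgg
Slc25a15, downstream start: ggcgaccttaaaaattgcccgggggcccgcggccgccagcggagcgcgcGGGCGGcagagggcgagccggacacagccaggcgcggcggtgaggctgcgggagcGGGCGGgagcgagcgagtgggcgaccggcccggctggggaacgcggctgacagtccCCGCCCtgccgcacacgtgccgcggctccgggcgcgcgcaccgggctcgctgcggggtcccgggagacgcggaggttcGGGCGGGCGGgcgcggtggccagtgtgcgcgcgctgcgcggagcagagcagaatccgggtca

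The Otc window had 1 CG dinucleotide and 44.3% G and C, and matched none of the 5 motifs. The windows of Nags, Ass1 and Slc25a15 had 14, 27, 15 and 51 CG dinucleotides in the order printed and between 57.7% and 79.0% G and C. Over all 32851 windows of the table the medians were 7 CG dinucleotides and 52.7% G and C, and the Otc window stood at the 14.1th percentile of CG number. A GC box was present in 35.7% of all windows, TATAAA in 13.6%, CCAAT in 37.4%, TTGCNNAA in 10.8% and CAAAGTCC in 1.42%. The windows of Nags, Ass1 and Slc25a15 were covered completely by peaks in all 4 libraries. At Otc, peaks of liver replicate 1 covered 54 of the 300 bases, and those of the other libraries covered all of them. Among the members with a window, Otc had both the fewest CG dinucleotides and the largest difference in width between tissues. A relation between CG number and width was not tested. These matches describe letters in a window and not bound sites.

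Widths were then set against those of other genes. Among the 11805 protein-coding genes with a promoter peak in all 4 libraries, the widest promoter peak had a median of 1702 and 1552 bp for liver, beside 1802 and 1602 bp for yolk sac. In 35.6% of them both yolk sac widths exceeded both liver widths, and in 20.7% the reverse was found. Of the 5 members called in all 4 libraries, Otc, Ass1, Asl and Nags were wider in both yolk sac libraries, none was wider in both liver libraries, and the Slc25a15 values touched at 1702 bp. The log2 ratio of mean width, yolk sac over liver, was 2.17 at Otc, above that of 98.9% of these genes. At Ass1 it was 0.40, at Asl 0.33, at Nags 0.14 and at Slc25a15 0.13, and the median over all 11805 genes was 0.06. The Asl value does not follow a single peak. In yolk sac replicate 1 its widest peak was that over the main start (1452 bp). In yolk sac replicate 2 it was the one at an upstream start near Crcp (1252 bp).

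**Figure D2:**
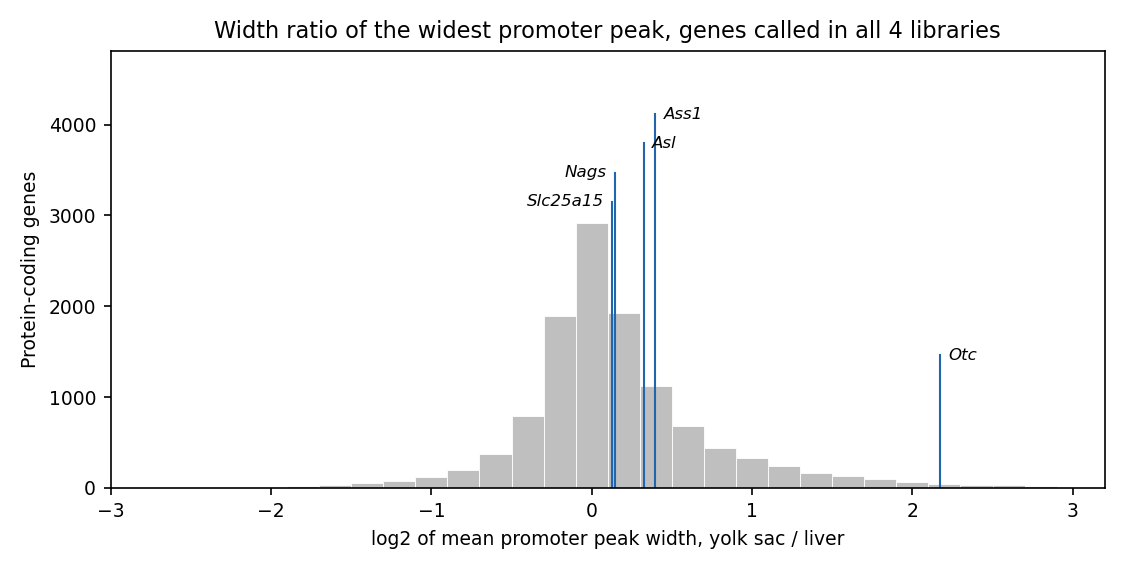
Histogram of the log2 ratio of mean promoter peak width, yolk sac over liver (x axis), over the 11805 protein-coding genes called in all 4 libraries (y axis, number of genes in bins), with a line at each of the 5 members among them, whose height has no meaning. Otc stands at 2.17, in the right tail, and the other 4 lie between 0.13 and 0.40.

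**Figure D3:**
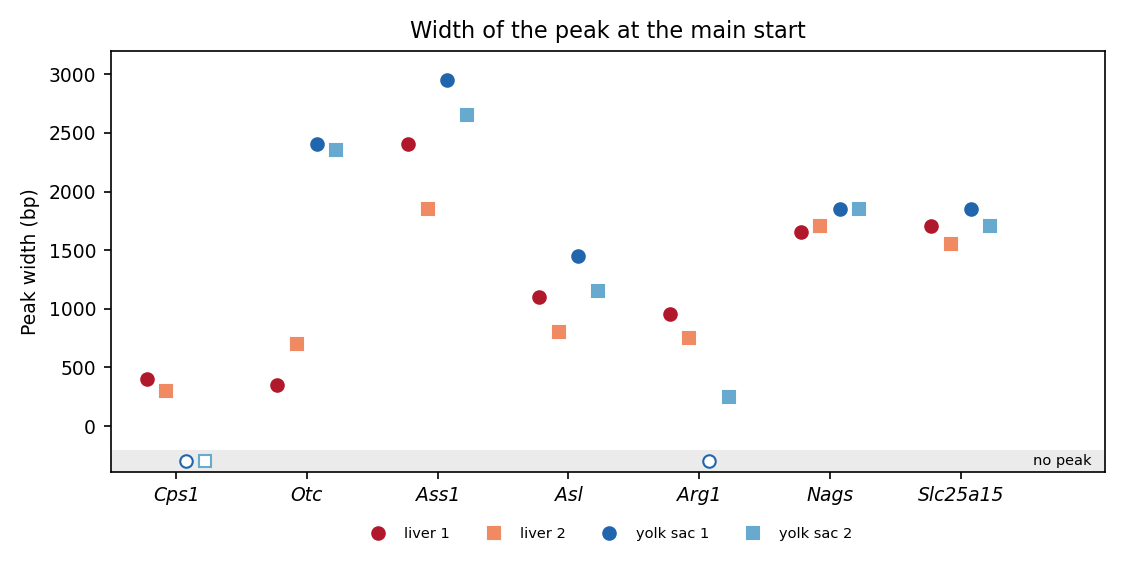
Width in bp (y axis) of the peak over the main start of each gene (x axis), 1 point per library, with open symbols in the grey band where no peak was called. The Otc peaks are 352 and 702 bp wide in liver and 2402 and 2352 bp wide in yolk sac, while the Arg1 peak is narrower in yolk sac replicate 2 (252 bp) than in liver.

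Upstream of Otc the liver libraries alone had a distal region 12.5 kb from the start (10239401 to 10240202, intergenic). The call was weak in liver replicate 1, where the peak was 102 bp wide at a percentile of 0.688, and stronger in replicate 2, where it was 802 bp wide at 36.3. The only other peak near Otc lay at a start of Rpgr, a gene of photoreceptor cilia, and was called in all 4 libraries. Counting the gene and 50 kb on each side, liver had 3 and 3 peaks and yolk sac 2 and 2.

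Slc25a15, the mitochondrial ornithine transporter, lies on chromosome 8 (22375551 to 22398597, minus strand). Its promoter peak was 1702 and 1552 bp wide in liver and 1852 and 1702 bp in yolk sac. The score percentiles were 49.99 and 48.4 for liver, 51.2 and 55.2 for yolk sac, the narrowest span over the 4 libraries among the 7 genes. The peak also lies within 500 bp of a start of 1810012K16Rik. These percentiles lie so near 50 that the higher-scoring 50% of each list kept the peak for yolk sac and dropped it for liver. Around the gene, yolk sac had more peaks, 6 and 8 against 3 and 3 in liver. The yolk-sac-only distal regions there lay 44.7 kb upstream (22442851 to 22443752, intergenic, percentiles 98.5 and 83.4) and 22.1 kb upstream, in an intron of Mrps31 (22420501 to 22420852, percentiles 20.3 and 2.40). An intronic region 7.47 kb downstream of the start (22390701 to 22391552) was called in all 4 libraries.

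The cytosolic genes Ass1 and Asl had promoter peaks of middle or high rank in both tissues. Ass1, the argininosuccinate synthase, lies on chromosome 2 (31470207 to 31520672, plus strand, 4 transcripts). Its promoter peak was 2402 and 1852 bp wide in liver and 2952 and 2652 bp in yolk sac, the widest of the 7 in every library. The peaks began between 456 and 556 bp upstream of the start, and extended 1945 and 1395 bp into the gene in liver and 2395 and 2145 bp in yolk sac. Score percentiles were 57.1 and 56.5 in liver and 66.7 and 54.5 in yolk sac, and the tissues overlapped.

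The 50 kb upstream of Ass1, within and next to the neighbouring gene Hmcn2, held most of the peaks of its locus. Regions 5.86 kb upstream (31463501 to 31465202, intergenic) and 10.7 kb upstream (31457801 to 31461202, overlapping an exon of Hmcn2) were called in all 4 libraries. The second of these was 1002 and 1202 bp wide in liver and 3402 and 2852 bp in yolk sac. A further region 16.8 kb upstream was called in all 4 libraries, but only its yolk sac peaks reached the window of an annotated start of Hmcn2. Its peaks were 352 and 402 bp wide in liver, taking the higher-scoring of 2 peaks in replicate 2, and 2602 and 2652 bp in yolk sac. A region 27.3 kb upstream (31442251 to 31443602, in an intron of Hmcn2) was yolk-sac-only, at percentiles of 85.1 and 86.7. Past the end of Ass1, 60.3 kb from its start, a liver-only intergenic region (31530201 to 31530802) was called at percentiles of 30.8 and 31.5. No peak was called inside the gene away from its start.

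Asl, the argininosuccinate lyase, lies on chromosome 5 (130011258 to 130029247, minus strand) and had the most annotated starts, 8, of which 6 lay within 500 bp of 1 peak. This peak over the main start was 1102 and 802 bp wide in liver and 1452 and 1152 bp in yolk sac, at percentiles of 56.8 and 62.8 in liver and 76.5 and 71.8 in yolk sac. A separate peak lay at the farthest upstream start of Asl, with its region centred 5.02 kb upstream of the main start. It lay within 500 bp of a start of Crcp as well. Its widths were 1102 and 1052 bp in liver and 1302 and 1252 bp in yolk sac, and its percentiles were 58.3 and 86.4 in liver and 94.1 and 93.9 in yolk sac. Which of the 2 genes this initiation belongs to cannot be told from the peak lists.

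At the Asl locus both tissues had 8 peaks in each library, but at different places. The yolk-sac-only distal regions all lay on the upstream side, within Crcp, at 7.52, 16.7 and 35.7 kb from the main start, with percentiles of up to 72.8. The liver-only regions lay 49.5 kb downstream within an intron of Vkorc1l1, 30.8 kb downstream at an exon of Gusb, and 50.4 kb upstream in an intron of Tpst1. Their percentiles were 59.5 and 41.3, 7.64 and 9.40, and 58.7 and 42.2. A region inside Asl, 2.25 kb downstream of the main start (130021451 to 130022802), was called in both yolk sac libraries and, at a width of 102 bp, in liver replicate 1.

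Arg1, the arginase that closes the cycle in hepatocytes, lies on chromosome 10 (24915221 to 24927484, minus strand, 3 transcripts). Its promoter peak was 952 and 752 bp wide in the liver libraries, at percentiles of 58.3 and 30.0. Yolk sac replicate 2 had a peak of 252 bp at the same start, at a percentile of 6.93, and yolk sac replicate 1 had none. The liver values were thus higher in width than the 1 yolk sac call, and the yolk sac libraries disagreed with each other. With every list cut to its top 24333 peaks, which removes more of the yolk sac lists, Arg1 was liver-only, as were 3.01% of protein-coding genes. In the higher-scoring 50% Arg1 remained in liver replicate 1 only. The peak also lies within 500 bp of a start of Gm36172. The macrophage markers, given because macrophages can express Arg1, had promoter peaks at 6 and 6 of 10 genes in liver and 10 and 9 in yolk sac, in the direction opposite to that of Arg1, and their part in the result was not tested.

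Distal peaks near Arg1 were few. A yolk-sac-only region 2.79 kb upstream (24929851 to 24930702, overlapping an exon of Gm36172) was called at percentiles of 45.9 and 56.1. A liver-only intergenic region 24.4 kb upstream (24951451 to 24952252) was called at percentiles of 42.9 and 85.6. No peak was called in the gene body away from the promoter, and the next one downstream lay at the start of Med23, a Mediator subunit gene, in all 4 libraries.

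**Figure D4:**
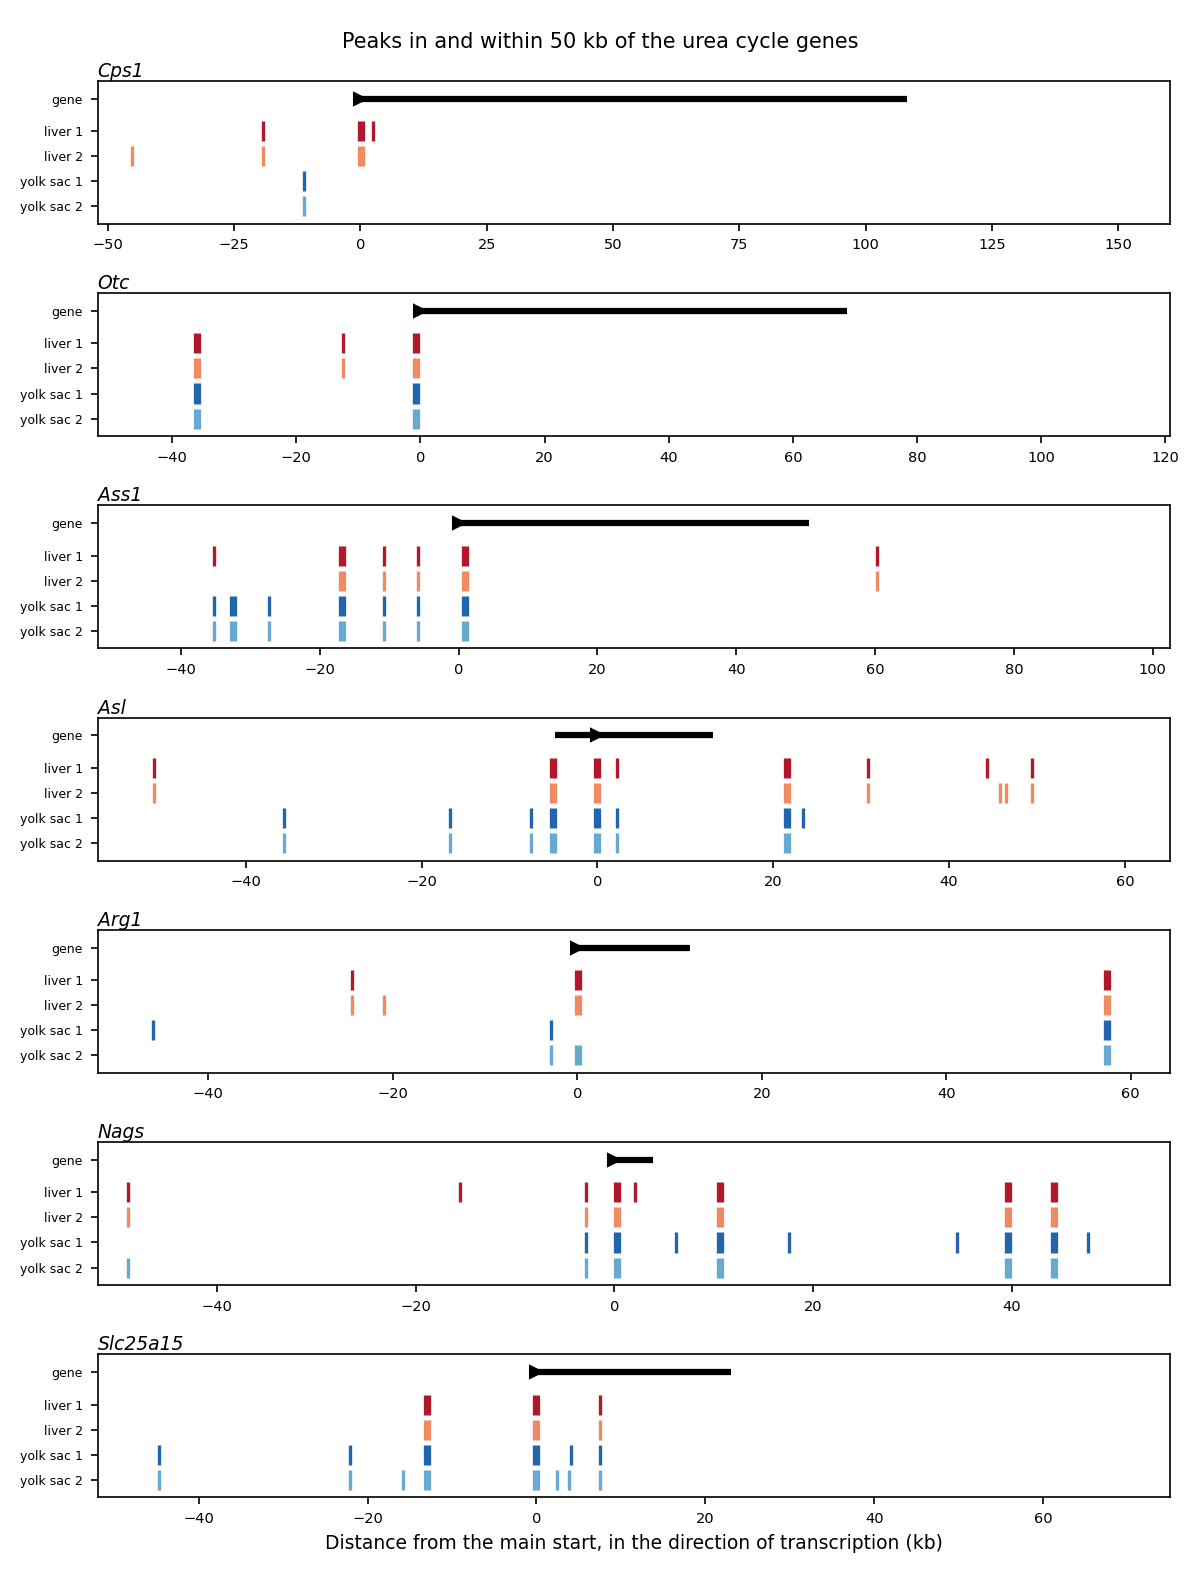
Peaks in the 7 loci by library, with the distance from the main start in kb along the direction of transcription (x axis) and 1 row per library; the black bar is the gene and the arrowhead its main start. Each mark stands at the midpoint of the region merged over the 4 libraries and is not drawn to the width of the peak, with thick marks for regions at an annotated start and thin marks for distal ones.

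Over the 7 loci together, gene bodies with 50 kb on each side, liver libraries had 34 and 33 peaks, and yolk sac libraries 36 and 35. Means were 33.5 ± 0.707 and 35.5 ± 0.707 (SD, n = 2), and the gap of 2 peaks was larger than either SD (exact permutation p = 0.33, adjusted 0.667). Over all protein-coding genes the mean count per gene was 3.41 and 3.34 in liver and 5.61 and 4.96 in yolk sac. In proportion, the yolk sac excess at the 7 loci was thus smaller than that over all genes. The yolk sac lists were much longer, and with every list cut to its top 24333 peaks the counts were 32 and 33 for liver, 21 and 23 for yolk sac. By locus, Ass1 and Slc25a15 had higher counts in each yolk sac replicate than in any liver replicate, 2 of 7 members where 47.1% of protein-coding genes did. Cps1 and Otc had more in both liver libraries, 2 of 7 where 5.41% did. After that cut Cps1 had 3 and 3 against 0 and 0 peaks, and the Otc values touched at 2. The Ass1 values were then equal at 6 in every library, and Slc25a15 had 3 and 3 against 2 and 3. When only the upper 50% by score was kept instead, Otc reversed, with 0 and 0 in liver against 2 and 2 in yolk sac. Cps1 kept its order, with 1 and 1 against 0 and 0. Ass1 had 2 and 3 against 6 and 5, and Slc25a15 1 and 2 against 3 and 3. All loci together then held 15 and 14 against 22 and 21. Shares of protein-coding genes with these orders were not computed for either filter.

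**Figure D5:**
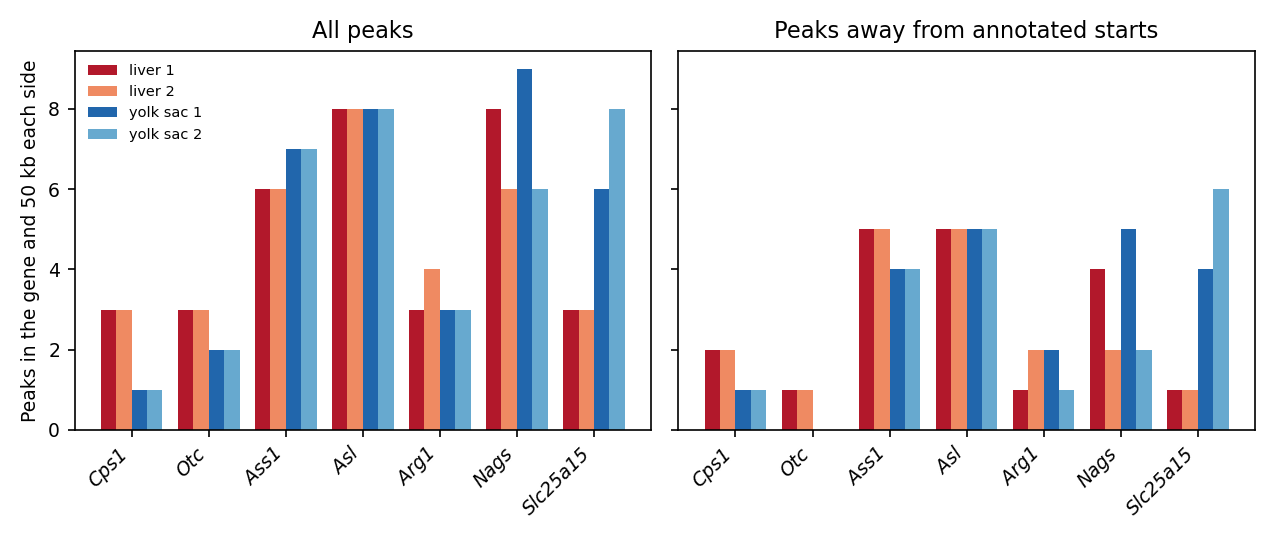
Number of peaks in each gene and 50 kb on each side (y axis) by gene (x axis) and library (bars), for all peaks on the left and for peaks away from annotated starts on the right. Cps1 has 3 peaks in each liver library and 1 in each yolk sac library, and Slc25a15 has 3 in each liver library and 6 and 8 in yolk sac.

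Restricted to distal peaks, the 7 loci held 19 and 18 in liver and 21 and 19 in yolk sac (exact permutation p = 0.667). Only Slc25a15 had more in both yolk sac libraries, where 42.0% of protein-coding genes did, and Cps1, Otc and Ass1 had more in both liver libraries, where 5.32% did. The Ass1 order rests on the broad yolk sac peak 16.8 kb upstream. That peak reaches the start window of Hmcn2 and so is not counted as distal, unlike the narrower liver peaks. At Cps1 each liver library had 2 distal peaks, of which 1 lay in a region called in both. In the gene bodies, by midpoint, the liver lists had 11 and 7 peaks, and those of yolk sac 6 and 9, with means of 9 ± 2.83 and 7.5 ± 2.12 (SD, n = 2; exact permutation p = 0.667, adjusted 0.889). That difference was smaller than the spread between replicates, and without liver replicate 1 it changed sign, to 0.5. No member had more body peaks in both yolk sac libraries, against 21.3% of protein-coding genes, and Otc alone had more in both liver libraries, against 5.19%. The Otc order rests on its promoter peak, called in every library, whose midpoint in yolk sac lies upstream of the gene. No library had a distal peak in the Otc body.

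When peaks of the 4 lists that overlapped were merged, the 7 loci held 57 regions, 40 of them distal. Of the distal regions, 7 (17.5%) were liver-only, 8 (20%) yolk-sac-only, 4 called in all 4 libraries and 18 called in 1 library. Over the genome, 8.01% of 42751 distal regions were liver-only and 40.3% yolk-sac-only. Those called in all 4 libraries made up 8.92%, beside 10% at the 7 loci, and those called in 1 library 35.6%, beside 45%. By position, 14 of the 40 were intergenic, 15 intronic and 11 overlapped an exon, and the same split over the genome was not computed. The 7 liver-only distal regions lay at Cps1, Otc, Ass1, Asl and Arg1, with 3 of them at Asl and none at Nags and Slc25a15. The one at Otc was weak in liver replicate 1, at a percentile of 0.688. The share of all protein-coding genes with such a region within 50 kb was not computed.

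Genes with the promoter pattern most like that of a member were found by the Euclidean distance over the percentiles in the 4 libraries, with 0 where no peak was called. The nearest to Cps1 was Apoa5, an apolipoprotein gene, at a distance of 3.35 percentile points, followed by Pnliprp1 (4.15) and Cdc20b (4.58). For Arg1 they were Cd52 (7.97), Aadac (8.14) and Chrna4 (10.1), and for Otc Nxf2 (4.35), Tmem141 (6.51) and Rars (7.20). Asl, taken at its highest-ranked promoter peak, was nearest to Crcp, at 0, since they share it, then to Disc1 and Ttc14. The nearest to Ass1 were Mettl17, Krt8 and Jdp2, to Nags Rbl1, Cdk2 and Pmel, the last 2 of which had equal values, and to Slc25a15 Gabarap, March6 and Rpl13. These are likenesses over 4 libraries only.

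The wider set of 43 genes of ammonia, arginine, ornithine and glutamine metabolism was called about equally in the 2 tissues. Promoter peaks were present at 37 and 39 of them in liver and at 38 and 37 in yolk sac, with means of 38 ± 1.41 and 37.5 ± 0.707 (SD, n = 2; exact permutation p = 1). Of the 43, 33 (76.7%) were called in all 4 libraries, 4 (9.30%) were liver-only and 2 (4.65%) yolk-sac-only, beside 53.8%, 1.01% and 5.25% of protein-coding genes. The liver-only genes were Car5a, the mitochondrial carbonic anhydrase that supplies bicarbonate to Cps1, Agmat, which encodes an agmatinase-like protein, Slc38a5, a transporter of glutamine, and Aqp9, a glycerol and urea channel.

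The liver-only calls of the wider set differed in strength. Car5a had peaks of 602 and 152 bp at percentiles of 28.6 and 18.3, close to those of Cps1. Slc38a5 had peaks of 1702 and 1302 bp at 83.8 and 86.2, and it alone of the 4 was kept in both liver libraries within the higher-scoring 50% of each list. Aqp9 had broad peaks of 3002 and 3102 bp at 68.2 and 49.8, and Agmat peaks of 852 bp in both libraries at 39.5 and 59.4. All 4 remained liver-only with the lists cut to 24333 peaks, which in liver is nearly the whole list. Of all protein-coding genes, 3.01% were liver-only after that cut, beside 1.01% before it. The erythroid markers in the same libraries moved in the same direction, from 3 and 3 of 9 in yolk sac to 9 and 9 in liver, and their part in these calls was not tested.

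The yolk-sac-only genes were Nos2, the inducible nitric oxide synthase, which uses arginine, and Slc25a2, a second ornithine carrier. Nos2 had peaks of 1052 and 1152 bp at percentiles of 87.2 and 52.4, and the call held in both score filters. Slc25a2 stood at 40.5 and 29.5 and was lost in both. The macrophage markers were also called more often in yolk sac, 10 and 9 of 10 against 6 and 6, and their part in the Nos2 call was not tested. Arg2, the mitochondrial arginase, named after its values were seen, was called in yolk sac replicate 1 only, at a percentile of 21.9. In the higher-scoring 50% of each list, 1 of the 43 genes was liver-only and 3 were yolk-sac-only, beside 1.32% and 8.84% of protein-coding genes. With the lists cut to 24333 peaks, 4 were liver-only and 1 was yolk-sac-only, beside 3.01% and 2.61%.

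Among the genes of this set called in all 4 libraries, those with the highest mean percentile were Sirt5 (98.6), Gpt2 (96.6), Pycr1 (88.3), Slc25a12 (87.5) and Slc25a13 (81.8). Sirt5 is a mitochondrial deacylase that acts on Cps1, and Gpt2 an alanine aminotransferase. Pycr1 makes proline, and Slc25a12 and Slc25a13 export aspartate from mitochondria, which Ass1 needs.

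All 13 genes in a list of factors that regulate urea cycle genes in hepatocytes had promoter peaks in all 4 libraries, beside 53.8% of protein-coding genes. Those with the highest mean percentile were Nr3c1, the glucocorticoid receptor (75.3), Nr1h4, the bile acid receptor (75.1), Gcgr, the glucagon receptor (71.4), Ppargc1a, a coactivator (70.7) and Cebpa, a leucine zipper factor of hepatocytes and myeloid cells (67.7). Gcgr stood at 43.7 and 46.6 in liver and at 98.5 and 96.6 in yolk sac. Cebpa had the opposite order, 80.4 and 81.8 in liver against 53.4 and 55.2 in yolk sac. The score filters gave different tissue-only calls among the 13 genes. In the higher-scoring 50% of each list Foxa1, Foxa2, Gcgr and Onecut1, 4 of the 13, were yolk-sac-only and none was liver-only, beside 8.84% and 1.32% of protein-coding genes. With the lists cut to 24333 peaks Prox1 alone was liver-only and none was yolk-sac-only, beside 3.01% and 2.61%. In the full lists Prox1 ranked higher in yolk sac, at percentiles of 47.0 and 32.4, than in liver, at 12.6 and 21.5. The cut removes more of the longer yolk sac lists. Foxa1, Foxa2, Onecut1 and Prox1, which encode transcription factors of the liver, were named after their values were seen.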

How the data were processed

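Nascent transcription was measured by PRO-seq in 2 liver and 2 yolk sac libraries, grouped by the titles in the labels. The authors deposited 1 list of dREG peaks per library, with a score per peak as deposited, without unit and not scaled between libraries. The build mm10, Bowtie2 and bedtools are named per the submitters' processing notes, with no role given; versions and the score cut-off are not given in the sources used here. Gene models and promoter sequences were those of GENCODE M21 (GRCm38) and RefSeq (GRCm38.p6), and positions are 1-based.

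Peaks were assigned to a promoter by any overlap with the window of 500 bp and to a gene or its 50 kb flanks by the midpoint. Main starts are those of the best-supported principal transcript. Regions were merged from peaks overlapping by at least 1 bp. Computations used Python 3.11.15, numpy 2.4.6, pandas 2.3.3 and matplotlib 3.10.9. On simulated lists, peaks were planted over a start of 200 of the 21951 protein-coding genes, each away from the starts of other genes. All 200 were returned in their planted pattern, and genes without a planted peak were not scored. The simulation checks the assignment step only and does not cover peaks that genes share. Alternatives were score filters, windows, flanks, coding starts, midpoints in the promoter window, any overlap with the gene, distal peaks only, leaving out each library and the replicate block. All members were named. Of the other lists, the liver-only and yolk-sac-only genes and the 5 with the highest mean percentile were named, of the distal regions up to 3 per direction and locus, with the nearest called in all 4 libraries, and 3 like genes per member. The members and lists were chosen with earlier results of these data known.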

Additional observations from a re-analysis of the deposited data

How the results depend on the processing

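Values are yolk sac minus liver, and a value counts as moved when it shifted by more than the SD between replicates. The number of members with a promoter peak (-1.5) became 1.5 in the higher-scoring 50% of each list, -2.5 with the 24333 highest-scoring peaks and -3 by peak midpoints. The wider set (-0.5) became 3 and -4 under the 2 score filters. Peaks in gene bodies (-1.5) became -5.5 with the 24333 highest-scoring peaks, 1.5 for distal peaks only and 0 when any overlap with the gene counted (12 and 9 in liver, 9 and 12 in yolk sac). Peaks within 50 kb (2) became 7 and -10.5 under the score filters, 0.5 with a flank of 25 kb and 7 with 100 kb. The cut to 24333 peaks removes more of the longer yolk sac lists by construction. By midpoint, the member calls lost were Otc in both yolk sac libraries and Ass1 in liver replicate 1 and both yolk sac libraries. That rule drops a broad peak over a start when its centre lies outside the window. The cause of the other shifts was not tested.

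Leaving out each library gave -2 to -1 for members, -1.5 to 0.5 for the wider set, where leaving out liver replicate 2 turned the sign, -3.5 to 0.5 for gene bodies, where liver replicate 1 did, and 1.5 to 2.5 within 50 kb. Windows of 250 and 1000 bp and coding starts alone changed no call at a member. Labels give both tissues replicate numbers 1 and 2, but nothing says that a number marks a shared batch. The replicate block left the differences at -1.5, -0.5, -1.5 and 2 in the same order (exact sign-flip p = 0.5, 1, 1 and 0.5, of which 0.5 is the smallest possible). Deviations of same-numbered libraries correlated at -0.02 for log2 promoter width over 11805 genes and 0.005 for peaks within 50 kb over 21951 genes. No read counts were analysed here, so depth sets an unknown limit on every missing call.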
